A study of Mus musculus with 28 samples.

Results

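The 41 genes described here encode the transcription factor NRF2, its inhibitor KEAP1, and proteins of antioxidant defence and superoxide production. They were taken by name from the table of raw gene counts, where all 41 of them were found among 45513 genes. All 41 also passed the filter on low counts that left 24273 genes to be tested. NRF2, encoded by Nfe2l2, is bound by KEAP1 and marked for degradation. When cysteines of KEAP1 are oxidised, NRF2 accumulates, pairs with a small MAF protein in the nucleus and binds antioxidant response elements. Its known targets make glutathione, reduce thioredoxin and quinones, and supply NADPH. Heart muscle respires heavily, and the hydrogen peroxide formed there is removed by peroxiredoxins, glutathione peroxidases and catalase, while NADPH oxidases make superoxide.

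RNA of ventricular myocardium was sequenced from 28 male C57BL/6 mice, 1 library per mouse. At 6 weeks of age the mice had either 5/6 nephrectomy, a surgical model of chronic kidney disease (CKD), or a sham operation. On day 7 they received by gavage 200 µl of culture medium, either with Oxalobacter formigenes (Oxf), a gut bacterium that degrades oxalate, or alone (vehicle). Every group, controls included, ate a diet with 1% hydroxyproline, an oxalate precursor, and 0.5% calcium. There were 10 sham-vehicle and 6 CKD-vehicle libraries, beside 5 of sham-Oxf and 7 of CKD-Oxf, and the other mice of groups planned at 10 each were not analysed here. Replicate numbers only name the mice within a group. The question of the study was how colonization bears on CKD and on remodelling of the heart.

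Libraries held 19.8 M to 65.4 M counts (median 38.1 M). All 8 cardiomyocyte markers were found in every library, with Myh6, the cardiac myosin heavy chain, at 11284 to 29665 CPM (counts scaled to library size). Markers that are strongest in atria (Sln, Myl7, Myl4, Bmp10 and Nppa) summed to 62.8 to 2775 CPM per library. Sham-Oxf replicate 1 stood apart, with 15879 genes that had a count and 19.8 M counts. Between 2.12% and 23.6% of a library's counts fell on 7SL, an abundant non-coding RNA that takes part in protein export. This share averaged 11.0% in sham mice and 15.3% in CKD mice given vehicle, and 4.67% and 9.85% in those given Oxf. The clock score, a mean log2 CPM of genes such as Dbp and Per1 minus that of Arntl, Npas2 and Clock, averaged 1.76, 0.186, 3.76 and 3.07 in the same order. Both measures enter the results below as covariates.

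Levels between genes were compared as CPM per kilobase of exon, averaged over the 28 libraries. Gpx3, a secreted glutathione peroxidase, was the most abundant member at 154 ± 73.3 CPM per kilobase (SD). Gstm1, a glutathione transferase, followed at 49.8 ± 15.5, and Gpx4, which reduces lipid peroxides in membranes, at 32.6 ± 17.7. Gstp1 (24.8 ± 7.85), Prdx5 (24.3 ± 11.1) and Cat (21.7 ± 6.30) came next and did not differ by more than their spread over libraries. Among the peroxiredoxins, the order below Prdx5 was Prdx3 (15.8 ± 8.84), Prdx2 (14.5 ± 6.73), Prdx1 (11.2 ± 5.82) and Prdx6 (6.35 ± 1.27), and the first 3 of these lay within 1 SD of each other. Nfe2l2 stood at 11.5 ± 1.74 and Keap1 at 4.37 ± 0.569 CPM per kilobase. The lowest members were Slc7a11, the cystine importer of glutathione synthesis, at 0.0462 ± 0.0175, and Nox4, an NADPH oxidase that makes hydrogen peroxide, at 0.410 ± 0.294. Hmox1, the inducible heme oxygenase, was at 1.48 ± 0.492. The other members lay between 1.19 (Osgin1) and 14.3 (Gsta4) CPM per kilobase.

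With Oxf, averaged over sham and CKD mice, the peroxiredoxins Prdx1 and Prdx3 fell and Abcc1 rose. These 3 members passed an adjusted p of 0.05 in edgeR's quasi-likelihood test over all genes. They make 7.32% of the 41 members, while 2.81% of all genes tested passed (1.26% higher and 1.54% lower). Of the 18420 genes at or above the mean CPM of the lowest member, 3.4% passed. Prdx1 is a cytosolic and Prdx3 a mitochondrial peroxidase that reduce hydrogen peroxide with electrons from thioredoxin. Abcc1 is a membrane transporter that exports glutathione conjugates.

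Prdx1 (ENSMUSG00000028691, chromosome 4, 116685544 to 116700822, GRCm38) was at 23.7 CPM in the lowest sham-vehicle library, with a median of 31.7 and a highest value of 72.9. In CKD-vehicle the lowest, median and highest values were 23.5, 45.8 and 70.4 CPM. The sham-Oxf libraries had 24.1, 19.6, 22.5, 16.2 and 17.0 CPM, and CKD-Oxf ran from 13.9 over a median of 23.3 to 48.4. Thus 8 of 12 Oxf libraries lay below the lowest of the 16 vehicle libraries and 11 of 12 below the vehicle median, while CKD-Oxf replicate 4 alone exceeded it. The groups overlapped, as they did for all 41 members in each of the 4 comparisons of 2 groups. Prdx1 fell by 0.98 ± 0.21 (SE) on the log2 scale (edgeR adjusted p = 0.0175), from means of 39.6 and 48.2 CPM in the sham and CKD mice given vehicle to 19.9 and 24.5 CPM with Oxf. It passed in each of the 28 fits that left out 1 library, between -1.12 and -0.92 (edgeR adjusted p 0.00238 to 0.0432). In RNA from whole tissue, fewer cells of a type and less RNA per cell cannot be told apart.

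Prdx3 (ENSMUSG00000024997, chromosome 19, 60864051 to 60874556) had a median of 18.6 CPM in sham-vehicle (11.5 to 54.5) and 31.8 CPM in CKD-vehicle (17.4 to 54.5). In sham-Oxf its values were 11.4, 8.51, 14.3, 16.3 and 12.3 CPM, and in CKD-Oxf the median was 19.0 (10.5 to 40.3). Here 3 of 12 Oxf libraries lay below every vehicle library and 11 of 12 below the vehicle median, so the overlap was wider than for Prdx1. Prdx3 fell by 0.85 ± 0.23 (SE) on the log2 scale (edgeR adjusted p = 0.0465).

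Abcc1 (ENSMUSG00000023088, chromosome 16, 14361558 to 14475737) moved the other way. The sham-Oxf libraries had 46.4, 63.5, 45.6, 69.6 and 66.4 CPM, against a median of 41.2 in sham-vehicle (27.4 to 57.4). The CKD-Oxf median was 54.9 CPM (29.0 to 64.3), against 39.4 in CKD-vehicle (27.5 to 47.3). Of the 12 Oxf libraries 4 lay above every vehicle library and 11 above the vehicle median, with CKD-Oxf replicate 4 again the exception. Abcc1 rose by 0.45 ± 0.12 (SE, edgeR adjusted p = 0.0426).

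Mean levels of markers of several cell types were also lower in Oxf than in vehicle libraries. The 6 fibroblast markers, each found in every library, summed to means of 534 (sham, 273 to 822) and 506 CPM (CKD, 364 to 756) under vehicle and of 406 (279 to 623) and 379 CPM (251 to 605) under Oxf. The 5 atrial markers, also found in every library, summed to 1406 (205 to 2775) and 1976 CPM (1056 to 2583) under vehicle and to 951 (62.8 to 2068) and 1225 CPM (101 to 1975) under Oxf. Cardiomyocyte markers summed to means of 25917 (sham) and 33722 CPM (CKD) under vehicle and of 24099 and 28567 CPM under Oxf. Smooth muscle markers gave 262, 239, 214 and 194 CPM in the same order. Neutrophil, erythroid and hepatocyte sums had higher means under Oxf in both surgeries, while endothelial and adipocyte sums were lower in sham and higher in CKD mice. None of these differences passed (adjusted p at least 0.331 by exact permutation tests). The part of these cells in the values of Prdx1, Prdx3 and Abcc1 was not tested.

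Prdx3 and Abcc1 were less stable than Prdx1. When 1 library at a time was left out, Abcc1 passed in 11 of 28 fits and Prdx3 in 8. Prdx1 was the only member past the threshold without sham-vehicle replicate 1, 3, 4, 5 or 7, CKD-vehicle replicate 1, 2, 3 or 4, sham-Oxf replicate 2, 4 or 5, or CKD-Oxf replicate 1, 2, 3, 5 or 6. In those fits 0.449% to 2.05% of all genes passed. More members passed without sham-vehicle replicate 9 (4, with 3.54% of all genes), sham-vehicle replicate 6 (5, with 4.82%), CKD-vehicle replicate 5 (6, with 7.83%), sham-Oxf replicate 3 (6, with 3.69%) or CKD-Oxf replicate 4 (8, with 13.9%). Prdx1 and Abcc1, but not Prdx3, passed without sham-Oxf replicate 1, the library with few genes (3.5% of all genes passed). With that library and CKD-Oxf replicate 4 both left out, a choice made after the values were seen, 9 members passed (19.1% of all genes did): Prdx1, Prdx2, Prdx3, Gpx4, Txn2, Sod3 and Taldo1 lower, and Abcc1 and Tkt higher.

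**Figure D1:**
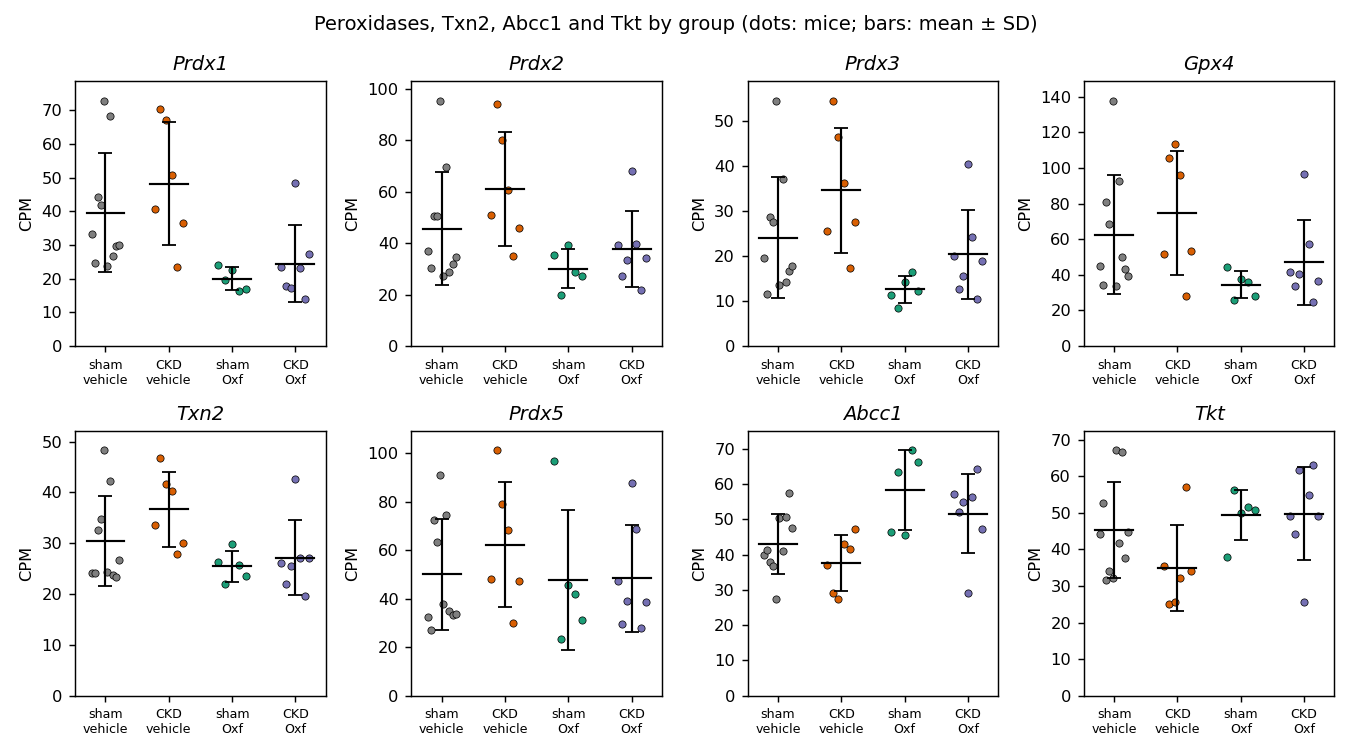
CPM of 8 members in the 28 mice, by group (dots are mice, the long bar is the mean and the whiskers the SD). Prdx1 shows 8 of 12 Oxf mice below every vehicle mouse, Abcc1 shows 11 of 12 above the vehicle median, and 1 CKD-Oxf mouse, replicate 4, stands high for Prdx1, Prdx2, Prdx3, Gpx4 and Txn2 and low for Abcc1 and Tkt.

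The other peroxidase genes did not pass the threshold. All 5 peroxiredoxins had negative log2 differences between Oxf and vehicle, with a median of -0.65. Prdx2, a cytosolic enzyme (chromosome 8, 84969587 to 84974834), was at -0.65 ± 0.20 (SE, edgeR adjusted p = 0.0644), with means of 45.6 (sham) and 61.2 CPM (CKD) under vehicle and of 30.1 and 37.7 CPM under Oxf. Prdx5, found in mitochondria and peroxisomes, was at -0.22 ± 0.24, and Prdx6, which also acts on phospholipids, at -0.12 ± 0.11. All 3 glutathione peroxidases were negative too: Gpx4 (chromosome 10, 80047166 to 80056439) at -0.76 ± 0.24 (edgeR adjusted p = 0.0677), Gpx3 at -0.59 ± 0.28 (0.207) and Gpx1, the main cytosolic one, at -0.17 ± 0.17 (0.610). The superoxide dismutases and catalase had a median of -0.33, with Sod3, the extracellular dismutase, at -0.39 ± 0.13 (edgeR adjusted p = 0.0923) and Sod1, the cytosolic one, at -0.02 ± 0.13. Per library, Gpx4 had a median of 47.4 CPM in sham-vehicle (33.8 to 138) and 74.5 CPM in CKD-vehicle (28.1 to 113). It had 44.3, 26.1, 37.9, 36.2 and 27.8 CPM in sham-Oxf and a median of 40.5 in CKD-Oxf (24.6 to 96.4), with 10 of 12 Oxf libraries below the vehicle median. Sod2 and Cat, the mitochondrial dismutase and catalase, were at -0.33 ± 0.19 and -0.32 ± 0.15. Txn2, the mitochondrial thioredoxin that reduces Prdx3, was at -0.35 ± 0.13 (edgeR adjusted p = 0.109), and Txn1, the cytosolic thioredoxin, at -0.36 ± 0.19 (0.237).

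The 4 glutathione transferases among the members, enzymes that attach glutathione to reactive compounds, had negative differences and did not pass. Mgst1 was at -0.38 ± 0.20 (SE), Gstp1 at -0.33 ± 0.15, Gsta4 at -0.32 ± 0.20 and Gstm1 at -0.07 ± 0.14, with edgeR adjusted p from 0.192 to 0.820. Other transferases differed in both directions without passing, such as Gstt2 at 0.60 ± 0.20 (edgeR adjusted p = 0.0736) and Gstm2 at -0.52 ± 0.16 (0.0641), named after their values were seen. Gss, the second enzyme of glutathione synthesis, was at 0.05 ± 0.09 and Slc7a11 at -0.32 ± 0.26. Blvrb, a biliverdin and flavin reductase, was at -0.27 ± 0.15, and Osgin1 was at 0.37 ± 0.24.

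When 1 library was left out, 13 members kept their sign but moved by over 1.5 times in at least 1 fit. Among them were Prdx5 (-0.43 to -0.13), Nox4 (-0.56 to -0.20), Gsta4 (-0.39 to -0.17), Osgin1 (0.20 to 0.49) and Gpx1 (-0.30 to -0.09). Another 10 changed sign: Nfe2l2, Keap1, Gclm, Gsr, Gstm1, Srxn1, Sod1, Pgd, Hmox1 and Cybb. The other 18, Prdx1, Prdx2, Prdx3, Gpx4, Txn2 and Abcc1 among them, moved by at most 1.5 times.

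Over all members, 31 of 41 had a negative log2 difference and the median was -0.17, while the median of all genes tested was 0.003. At an unadjusted p under 0.05 there were 11 members lower and 2 higher, or 31.7% of them, against 23% of all genes (11.5% lower and 11.5% higher). Of the 18420 genes at or above the mean CPM of the lowest member, 27.2% had such a p. Upper quartile scaling gave 29 negative members, with Sod1 and Hmox1 changing sign. With the clock score as covariate, 23 members were negative and 18 positive (median -0.03). With the 7SL share as covariate, 25 were negative and 16 positive (median -0.098). Length moved with these differences: genes with 1 to 2 kb of exon had a median of -0.08 and those with 8 kb or more 0.08. The part of length in the members' values was not tested, but the 11 members of 1 to 2 kb had a median of -0.33, the 16 of 2 to 4 kb -0.17, the 10 of 4 to 8 kb 0.04 and the 4 longest -0.33.

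**Figure D2:**
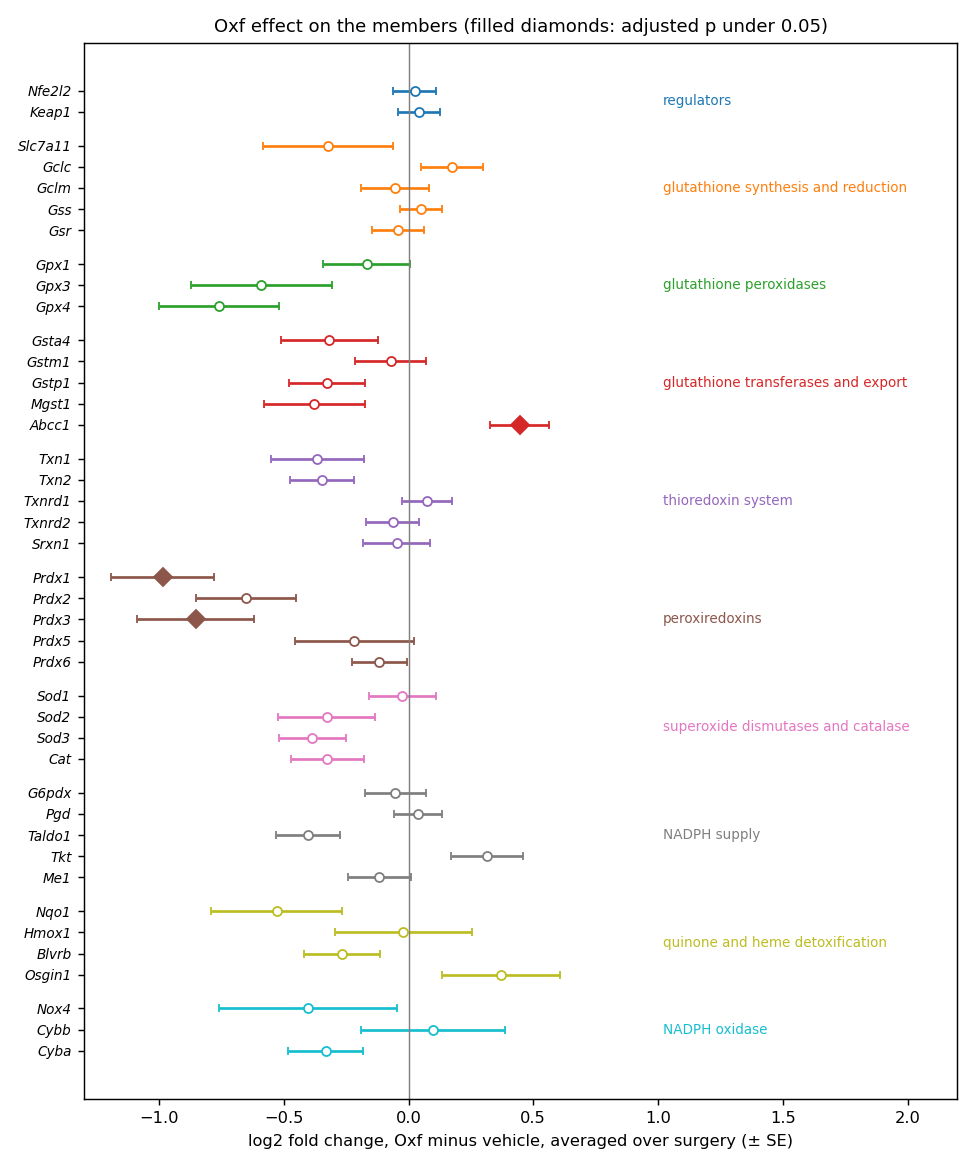
Log2 fold change of each member between Oxf and vehicle, averaged over surgery, with its SE as whiskers and members grouped by role. The 3 filled diamonds, Prdx1 and Prdx3 on the left and Abcc1 on the right, passed an adjusted p of 0.05, and the regulators Nfe2l2 and Keap1 lie at 0.03 and 0.04.

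Neither regulator, Nfe2l2 or Keap1, passed the threshold, nor did the 7 targets given in this paragraph. Nfe2l2 had medians of 46.1 CPM (sham) and 40.7 (CKD) under vehicle and of 48.2 and 40.5 under Oxf, with an overall difference between Oxf and vehicle of 0.03 (95% interval -0.14 to 0.19). Keap1 differed by 0.04 (-0.12 to 0.21). Of the classical targets, Gclc and Gclm, the catalytic and modifier subunits of the first enzyme of glutathione synthesis, differed by 0.17 (-0.07 to 0.42) and -0.05 (-0.32 to 0.21). Txnrd1, the cytosolic thioredoxin reductase, differed by 0.07 (-0.12 to 0.27). Srxn1, which repairs over-oxidised peroxiredoxins, differed by -0.05 (-0.31 to 0.21), and Gsr, the glutathione reductase, by -0.04 (-0.25 to 0.16). Each of these 7 intervals lies within 0.5 of 0. All intervals here are normal approximations, which are narrower than the F test would give. The interval of Nqo1 below therefore leaves out 0 although its unadjusted p exceeds 0.05. Nqo1, a quinone reductase (chromosome 8, 107388225 to 107403206), differed by -0.53 (-1.04 to -0.01, unadjusted p = 0.0533, edgeR adjusted p = 0.225), and Hmox1 by -0.02 (-0.56 to 0.52). Hmox1 had 0 counts in sham-Oxf replicate 1 and 1.52 to 4.27 CPM in the other libraries.

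NADPH supply was mixed. Taldo1 and Tkt, transaldolase and transketolase of the same branch of the pentose phosphate pathway, differed in opposite directions: Taldo1 by -0.40 ± 0.13 (SE, edgeR adjusted p = 0.0721) and Tkt by 0.32 ± 0.14 (0.187). The dehydrogenases that form NADPH in that pathway, G6pdx and Pgd, were at -0.05 ± 0.12 and 0.04 ± 0.09, and the malic enzyme Me1 at -0.12 ± 0.13. Tkt had 37.9, 56.3, 49.9, 51.5 and 50.9 CPM in sham-Oxf against a sham-vehicle median of 43.0 (31.7 to 67.1), and 11 of 12 Oxf libraries lay above the vehicle median. None of the 3 NADPH oxidase genes passed. Cybb, the catalytic subunit of phagocytes (NOX2), was at 0.10 ± 0.29, its partner Cyba at -0.33 ± 0.15 (edgeR adjusted p = 0.184), and Nox4 at -0.40 ± 0.36. Nox4 had a median of 3.18 CPM in sham-vehicle (1.65 to 14.2), and its CKD medians were 2.92 under vehicle (2.05 to 5.10) and 2.67 under Oxf (1.89 to 5.35). In sham-Oxf it had 4.82, 3.28, 2.95 and 2.39 CPM and, in replicate 1, 0 counts. Since Cybb is a gene of macrophages and neutrophils, their markers are given here. The 9 macrophage markers summed to means of 109 (sham) and 112 CPM (CKD) under vehicle and of 102 and 109 CPM under Oxf (83.4 to 151 over libraries). Cd68, Itgam and Fcgr1 were each at 0 in 1 library. The 5 neutrophil markers summed in the same order to 2.45, 2.68, 3.82 and 4.26 CPM (1.52 to 8.30), with Ly6g at 0 in 27 libraries. The part of these cells in the Cybb values was not tested.

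Within CKD mice, 0 of 41 members passed between CKD-Oxf and CKD-vehicle in edgeR, where 8 genes (0.033%) did. At an unadjusted p under 0.05 there were 5 members lower and 2 higher (17.1% of the members), against 13.1% of all genes (6.2% lower and 6.89% higher). Of genes at or above the mean CPM of the lowest member, 15.8% had such a p. The 3 members with the smallest p were Prdx1 at -0.98 ± 0.29 (SE, edgeR adjusted p = 0.200), Abcc1 at 0.46 ± 0.17 (0.285) and Prdx2 at -0.70 ± 0.28 (0.307). For Prdx1, 4 of 7 CKD-Oxf mice lay below all 6 CKD-vehicle mice, and for Abcc1 6 of 7 lay above all of them. Without CKD-Oxf replicate 4 the count rose to 4 members (3.83% of all genes passed): Prdx1, Prdx2 and Txn2 lower and Abcc1 higher. DESeq2 called 0 members (0.785% of all genes) and limma voom with sample weights 8 (14.9%).

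Sham-Oxf against sham-vehicle gave 0 members past the threshold, as for all genes (0%), and 9 members at an unadjusted p under 0.05, 8 of them lower and 1 higher, against 12.6% of all genes (5.98% lower and 6.6% higher). Of genes at or above the mean CPM of the lowest member, 13.4% had such a p. Prdx1 was at -0.99 ± 0.30 (SE, edgeR adjusted p = 0.199), Prdx3 at -0.94 ± 0.34 (0.260), and Taldo1 at -0.65 ± 0.19 (0.184). Taldo1 had 7.30, 11.3, 18.3, 11.3 and 7.76 CPM in sham-Oxf, where 4 of 5 lay below the lowest sham-vehicle value of 13.7. The interaction, which tests whether Oxf acted differently in CKD and sham mice, gave 0 of 41 members, as for all genes (0%), and 0 members at an unadjusted p under 0.05 (3.55% of all genes). Its 3 smallest p were those of Taldo1 (0.50 ± 0.26), Txnrd2, the mitochondrial thioredoxin reductase (-0.35 ± 0.21), and Mgst1, a microsomal glutathione transferase (0.65 ± 0.41), each with an edgeR adjusted p of 1.00. For Prdx1 the interaction was 0.02, with a 95% interval from -0.77 to 0.81.

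Nephrectomy without the bacterium moved no member past the threshold. CKD-vehicle against sham-vehicle gave 0 of 41 members (0.00824% of all genes) and 0 at an unadjusted p under 0.05 (4.46% of all genes). Tkt was at -0.38 ± 0.19 (SE), with medians of 33.2 CPM in CKD-vehicle and 43.0 in sham-vehicle. Sod2, the mitochondrial superoxide dismutase, was at 0.47 ± 0.25, with medians of 165 and 98.1 CPM and 6 of 6 CKD-vehicle mice above the sham-vehicle median. Prdx3 was at 0.52 ± 0.30. The edgeR adjusted p of each of these 3 was 0.955. The 5 peroxiredoxins were all positive here (median 0.32), and Hmox1 was at -0.50 ± 0.37. This comparison and the Oxf comparisons share their vehicle libraries, so their opposite signs are not independent.

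With Oxf in both arms, CKD-Oxf against sham-Oxf also gave 0 of 41 members, as for all genes (0%), and 1 at an unadjusted p under 0.05 (8.23% of all genes). This was Taldo1, higher in CKD-Oxf. Taldo1 was at 0.55 ± 0.20 (SE, edgeR adjusted p = 0.383), Prdx3 at 0.69 ± 0.35 (0.629) and Osgin1, an oxidative stress response gene, at -0.68 ± 0.35 (0.644). In this comparison, which uses no vehicle library, the 5 peroxiredoxins were again all positive (median 0.30), as were 30 of 41 members. Surgery averaged over gavage gave 0 of 41 members, as for all genes (0%), and 2 higher and 1 lower at an unadjusted p under 0.05 (10.6% of all genes, 5.17% higher and 5.45% lower): Prdx3 at 0.61 ± 0.23 (edgeR adjusted p = 0.352), Taldo1 at 0.30 ± 0.13 (0.410) and Osgin1 at -0.55 ± 0.24 (0.411).

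A further 81 genes of the same pathways, from small MAF proteins to glutaredoxins, metallothioneins and ferritins, were read from the same fits. For Oxf averaged over surgery, 3 of these 81 passed (3.70%, against 2.81% of all genes). Aifm2, which reduces coenzyme Q at membranes (FSP1), rose by 0.38 ± 0.10 (SE, edgeR adjusted p = 0.0386), with means of 15.6 (sham) and 14.5 CPM (CKD) under vehicle and of 18.6 and 20.8 CPM under Oxf. Aox1, an aldehyde oxidase, rose by 0.58 ± 0.16 (edgeR adjusted p = 0.0463), and its means in the same order were 82.6, 55.8, 113 and 90.4 CPM. Cbr1, a carbonyl reductase, fell by 0.47 ± 0.13 (edgeR adjusted p = 0.0447). None of the 81 passed in the other 6 comparisons.

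The share of 7SL RNA moved with the members that changed. After each group's mean was subtracted, log2 CPM of Prdx1 followed the log2 share over the 28 libraries (Pearson r = 0.696, permutation p = 8e-05, adjusted p = 0.000488; Spearman rho = 0.669, permutation p = 0.00023). Without the 2 libraries farthest from the median share, r was 0.675. Within groups r was 0.732 in sham-vehicle, 0.924 in CKD-vehicle and 0.577 in CKD-Oxf. Gpx4 had the strongest relation (r = 0.813, rho = 0.790, permutation p = 1e-05 for each, the lower limit of p with 100000 permutations), and Tkt ran the other way (r = -0.792, rho = -0.791, permutation p = 3e-05 for each). Of 41 members, 12 were positive and 5 negative past an adjusted p of 0.05, over 122 relations computed. Level and share come from the same library total, so they are not independent measures. These members make 29.3% and 12.2% of the 41, while 13.6% and 22.2% of all genes tested had an r as far from 0 as the weakest of them. The clock score had 0 such relations by Pearson's r. By Spearman's rho it had 2, with Abcc1 (rho = 0.574, permutation p = 0.00372, adjusted p = 0.0146; r = 0.428, adjusted p = 0.0717) and with Sod3 (rho = -0.474, permutation p = 0.0165, adjusted p = 0.0469; r = -0.447, adjusted p = 0.0573).

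With the 7SL share added to the fit, Prdx1 was at -0.55 ± 0.17 (SE, edgeR adjusted p = 0.120), Prdx3 at -0.34 ± 0.19 (0.356) and Abcc1 at 0.30 ± 0.12 (0.220), and 0 members passed (0.593% of all genes did). With the clock score, Prdx1 was at -0.64 ± 0.35 (edgeR adjusted p = 0.640), Prdx3 at -0.62 ± 0.42 (0.709) and Abcc1 at 0.12 ± 0.17 (0.878), and again 0 members passed (0% of all genes). Neither covariate passed an adjusted p of 0.05 in the 4 comparisons of 2 groups, adjusted over 48 tests that included cell marker sums. The difference of each covariate between Oxf and vehicle, averaged over surgery, was not tested. These tests therefore cannot show that clock score or 7SL share was alike under both gavages. In CKD mice the clock score exceeded that under vehicle by 2.89 when Oxf was given (exact permutation p = 0.00117, adjusted p = 0.0559). In sham mice it averaged 3.76 with Oxf against 1.76 with vehicle (exact permutation p = 0.00766, adjusted p = 0.184). The log2 7SL share differed by -1.32 between sham-Oxf and sham-vehicle (exact permutation p = 0.027, adjusted p = 0.259). In CKD mice the share differed by -0.72 (exact permutation p = 0.277, adjusted p = 0.522). The sign of the Oxf difference changed for 14 members with the clock score, Gpx1 and Prdx5 among them, and for 10 with the 7SL share, Prdx5 and Prdx6 among them.

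**Figure D3:**
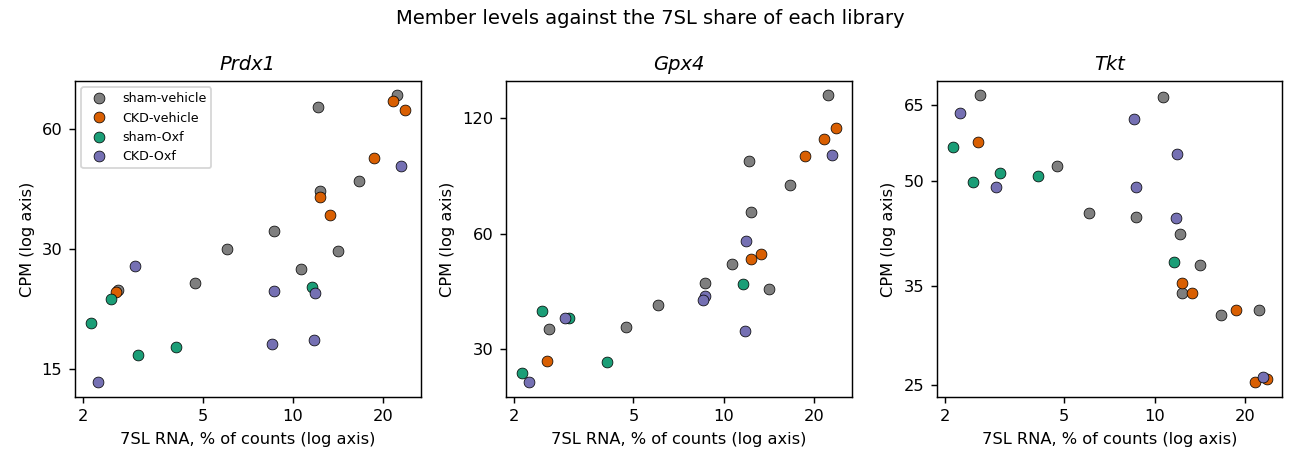
CPM of Prdx1, Gpx4 and Tkt in each library against the percent of its counts in 7SL RNA, both on log axes, coloured by group. Prdx1 and Gpx4 climb and Tkt declines with the share, and 4 of 5 sham-Oxf libraries lie at shares of 4.08% or less.

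With group means subtracted, 23 of 40 members (57.5%) followed Prdx1 positively and 2 (5%) negatively past an adjusted p of 0.05. Of all genes tested, 21% and 3.59% had an r as far from 0 as the weakest of these members. The 4 genes most like it were Prdx2 (r = 0.939, rho = 0.916), Txn2 (r = 0.935, rho = 0.907), Gpx4 (r = 0.926, rho = 0.868) and Prdx3 (r = 0.913, rho = 0.891), each with a permutation p of 1e-05. Leaving out the 2 libraries farthest from the median of Prdx1 gave r of 0.925, 0.917, 0.905 and 0.888. The 2 negative ones were Tkt (r = -0.819, rho = -0.806) and Abcc1 (r = -0.790, rho = -0.756). All these values share libraries, depth and the 7SL share given above.

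**Figure D4:**
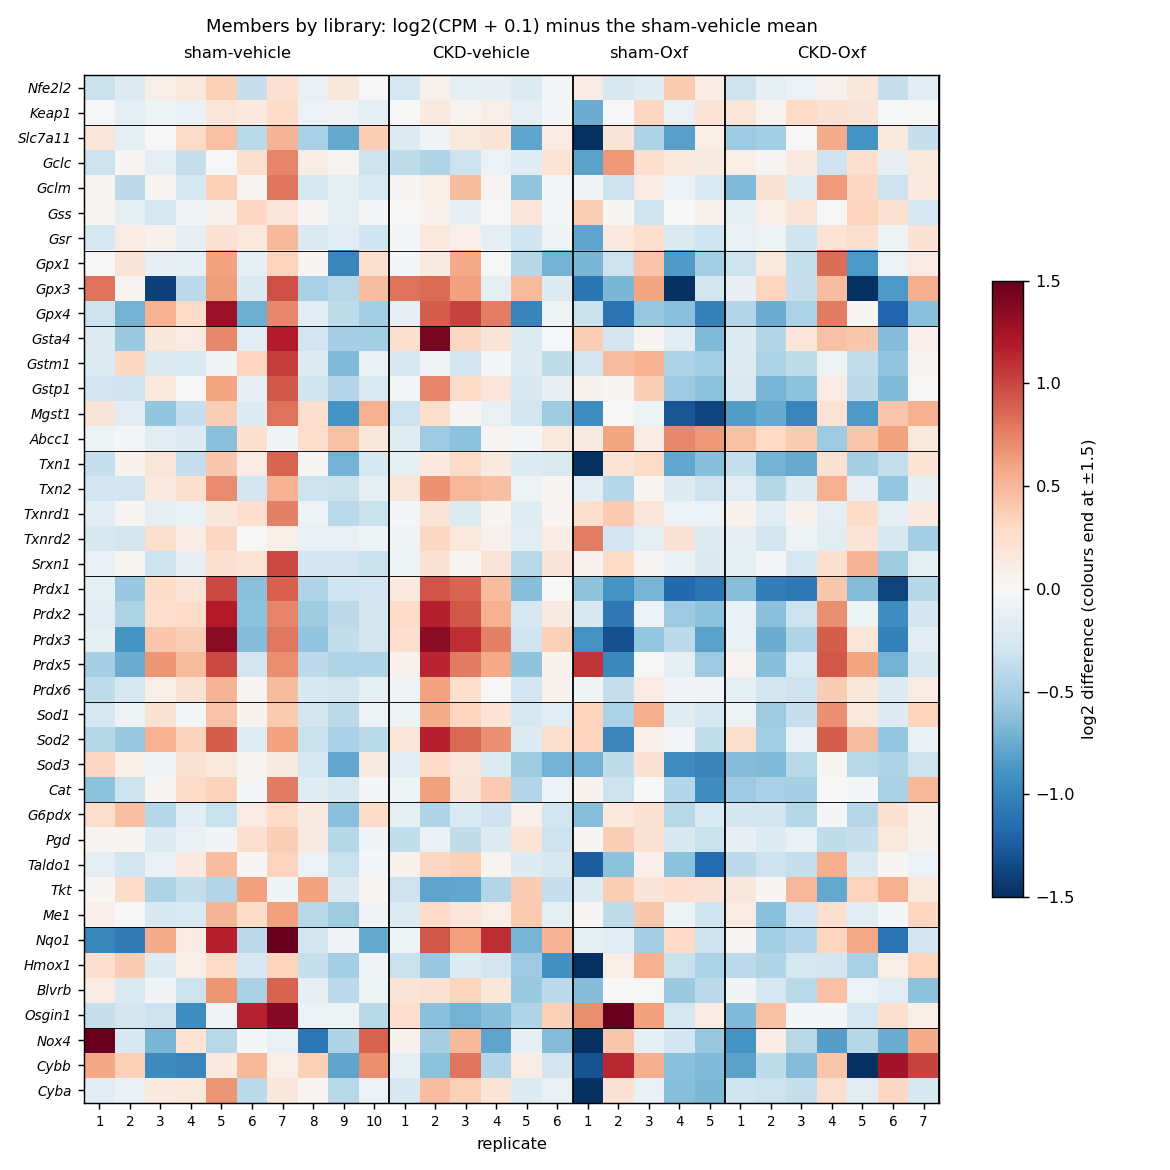
Log2 of CPM plus 0.1 minus the sham-vehicle mean for 41 members (lines) in 28 libraries (columns), red above and blue below, with colours ending at 1.5. Prdx1, Prdx2, Prdx3, Prdx5 and Gpx4 share their red and blue columns, and sham-vehicle replicate 7 is red across glutathione, thioredoxin and Nqo1 lines.

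Some canonical NRF2 targets, though not all, stood high in 1 control mouse. This was noticed after the values were seen and is given as a description. Sham-vehicle replicate 7 had the highest value of all 28 libraries for 15 of 41 members (36.6%), while the same was true of 1.2% of all genes tested. It lay at least 1.5-fold above the median of the other 9 sham-vehicle mice for 24 members (58.5%), against 10.3% of 18396 genes whose median reached the level of the lowest member. Nqo1 was at 36.7 CPM there, against a median of 9.46 and a highest value of 25.9 in the other 9 mice. Srxn1 had 19.6 CPM, against at most 11.6 in the other 9. Txnrd1 had 44.8 CPM against a median of 24.7, Gclm 18.7 against 9.64, Gclc 26.7 against 16.2 and Gstm1 158 against 66.8. Nfe2l2 (52.6 against 44.5 CPM) and Hmox1 (3.71 against 2.82) were within the range of the other 9. So were G6pdx (10.45 against 9.298 CPM), Taldo1 (21.98 against 16.4), Tkt (41.85 against 44.25) and Abcc1 (41.1 against 41.27). Of the 81 further genes, 10 were highest of all libraries in this mouse (12.3%): Gstm2, Gstm5, Gstm6, Gsta3, Gstt1, Gstt3, Cbr3, Pir, Txnip and Oxr1. Its 7SL share was 12.1% and it held 51.3 M counts. Its summed atrial markers stood at 2683 CPM (group median 1310) and its summed hepatocyte markers at 30.5 CPM, the highest of the group (median 16.4). Their part in these values was not tested. Without this mouse Prdx1 was the only member past the threshold for Oxf averaged over surgery, as stated above.

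**Figure D5:**
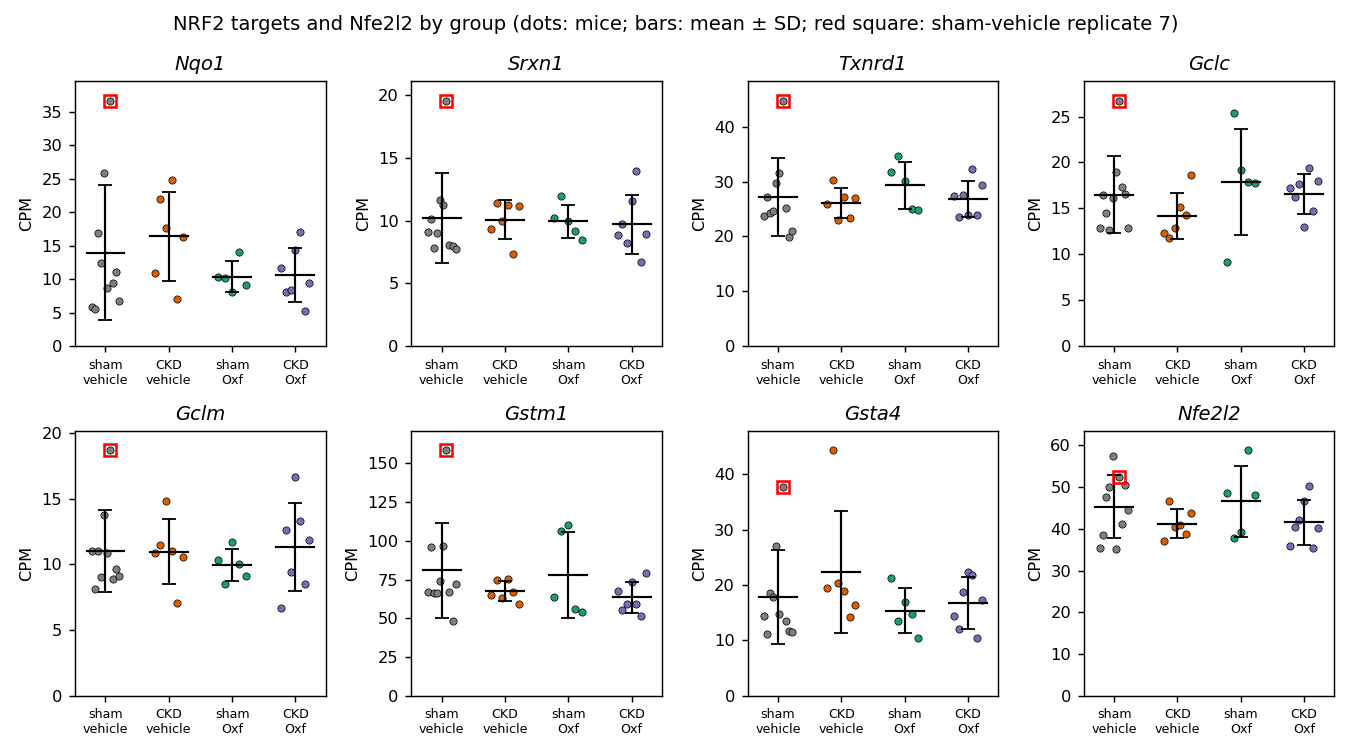
CPM of 7 NRF2 targets and Nfe2l2 in the 28 mice, by group (dots are mice, the long bar is the mean, the whiskers the SD, and the red square marks sham-vehicle replicate 7). That mouse is highest of all for Nqo1 (36.7 CPM), Srxn1, Txnrd1, Gclc, Gclm and Gstm1, and lies inside the sham-vehicle range for Nfe2l2.

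The core of the antioxidant response element, TGACNNNGC on either strand, was searched in RefSeq promoter windows (GRCm38.p6, 250 bases before to 50 after a start). Windows were found for 34 of 41 members, and 10 of the 34 (29.41%) held the core, against 13.99% of all genes with a window. Prdx1 held it and Prdx2, Prdx3 and Nqo1 did not. Sequences were printed only where the core lay before the start and the printed stretch overlapped no annotated exon. The other members with the core, G6pdx, Me1, Mgst1, Nfe2l2, Pgd and Srxn1, did not meet this rule, and their differences are given above. The sequences below show the core of Prdx1, the member with the largest fall, beside those of 3 genes that did not pass the threshold, Gclm, Txnrd1 and Sod1. Each is written 5′ to 3′ on the strand of the gene, with the core in capitals as its reverse complement.
Prdx1, chr4:116685436-116685504, plus strand: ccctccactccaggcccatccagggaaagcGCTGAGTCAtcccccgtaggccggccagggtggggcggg
Gclm, chr3:122245393-122245461, plus strand: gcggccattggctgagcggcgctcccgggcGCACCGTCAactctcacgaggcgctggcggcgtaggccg
Txnrd1, chr10:82859084-82859152, plus strand: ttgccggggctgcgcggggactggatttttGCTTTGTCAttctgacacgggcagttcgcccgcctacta
Sod1, chr16:90220676-90220744, plus strand: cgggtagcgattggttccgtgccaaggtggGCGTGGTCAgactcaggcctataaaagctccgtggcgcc
The cores start 133, 134, 92 and 56 bases before the RefSeq start of their window, which can differ from the GENCODE gene start. The Txnrd1 window lies inside its GENCODE gene (82833951 to 82897712), and the other windows of Txnrd1 did not hold the core. The 4 genes share the letters of the core and differed between Oxf and vehicle by -0.98 (Prdx1), -0.05 (Gclm), 0.07 (Txnrd1) and -0.02 (Sod1) on the log2 scale. A match of letters does not show that a factor binds there.

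Some members have near-identical copies or neighbours that can share their reads, and how such reads were counted is not given in the sources used here. A pseudogene of Gpx4 carried 32.6% of the Gpx4 level, and Gstp2 carried 56.4% of that of Gstp1. Pseudogenes of Prdx1 stood at 10.4% and 14.6% of its level, and 1 of Prdx2 at 4.63%. Exons of the other strand overlapped 19.1% of the exon bases of Prdx5 (Trmt112) and 13.6% of those of G6pdx (Ikbkg). Prdx3 and Abcc1 had no such copy or exon overlap. The annotated exons of Slc7a11 hold a stretch of 373 bases at least 95% alike to tubulin genes, so its low level is uncertain.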

How the data were processed

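The authors deposited 1 table of raw counts per gene for 28 libraries, 1 per mouse. Per the submitters' processing notes, FastQC 0.11.7, MultiQC 1.9, STAR 2.6.1d, Subread, featureCounts 1.6.3 and the mm10 build were used. The order of steps, strand and treatment of reads with several matches are not given in the sources used here, so copies and overlapping genes may share reads.

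Counts were fitted with edgeR 4.0.16 in R 4.3.3 (TMM scaling, genes kept by filterByExpr with a minimum count of 10, robust quasi-likelihood F test on 4 group means). P-values were adjusted by Benjamini-Hochberg over 24273 genes, with a threshold of 0.05. The contrasts read were 4 between pairs of groups, the interaction, and those of surgery and Oxf each averaged over the other factor. SEs come from the fold change and F, and 95% intervals are normal, which makes them narrower than the F test would give. CPM values are TMM-scaled. Relations used log2 CPM with a prior count of 2 and permutations within groups. Exon lengths and positions come from GENCODE M21 (GRCm38), where 45465 of 45513 identifiers matched. Copies were matches of at least 200 bases at 95% identity. Labels state no batch, so none was modelled, and p-values rest on the spread between mice within groups. Replicates are numbered in record order. Groups are blocks of mouse numbers (901 to 910, 913 to 920, 921 to 929 and 931 to 940). Anything that moved with this order therefore cannot be told apart from group. From first to last mouse of these blocks, the clock score went from -0.0279 to 3.20, -0.838 to 1.06, 2.53 to 4.34 and 1.59 to 3.21.

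Alternatives were DESeq2 1.42.0, limma 3.58.1 (voom with sample weights), other scalings and filters, only the groups compared, covariates, and leaving out libraries. The script was tested on simulated data. Members past the threshold were named, or the 3 smallest p where fewer passed. The members and lists were chosen with earlier results of these data known.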

Additional observations from a re-analysis of the deposited data

Results flagged for a closer look

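Gaps were examined for 41 members in 4 groups. In 12 of 164 cases the highest mouse of a group stood far from the next, past the limit of Dixon's gap test. Independent cases with normally distributed values would give about 1 in 20, or 8.2 cases. CPM was not transformed here and genes of the same mouse move together, so 8.2 is not a valid chance level. The value given is the gap as a share of the range of the group.

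Sham-vehicle replicate 7 stood apart for 4 genes of thioredoxin and glutathione metabolism. The gap was 0.673 of the range for Srxn1, 0.564 for Gstm1, 0.547 for Gclc and 0.533 for Txnrd1.

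CKD-Oxf replicate 4 stood apart for Prdx1 (gap 0.614, 48.4 CPM against a group median of 23.3), Prdx2 (0.613), Txn2 (0.675) and Taldo1 (0.628). Its 7SL share was 23.0%, against 2.24% to 11.8% in the other 6 mice of the group. Without it, 8 members passed for Oxf averaged over surgery, as did 13.9% of all genes.

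The other 4 gaps were in 4 vehicle mice. Gsta4, a transferase that acts on lipid peroxidation products, had a gap of 0.796 in CKD-vehicle replicate 2 (44.3 CPM, median 19.2). Tkt had 0.681 in CKD-vehicle replicate 5 (57.2 CPM, median 33.2), Nox4 had 0.594 in sham-vehicle replicate 1 (14.2 CPM, median 3.18), and Cyba had 0.548 in sham-vehicle replicate 5 (12.0 CPM, median 7.41).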

How the results depend on the processing

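For Oxf averaged over surgery, 3 members passed, and 6 did with DESeq2 (9.97% of all genes), 13 with limma voom (21.9%), 6 with at least 10 counts in every library (38 members tested, 10.1%), 1 with no filter (0.366%), 0 with the 7SL share (0.593%) or the clock score (0%) as covariate, and 9 (19.1%) with sham-Oxf replicate 1 and CKD-Oxf replicate 4 both left out, which was added after the data had been seen. Leaving out 1 library gave 1 to 8 members (0.449% to 13.9% of all genes). The count stayed at 3 with DESeq2 size factors (3.15% of all genes) and upper quartile scaling (3.3%). For CKD-Oxf against CKD-vehicle, 0 members passed, against 8 with limma voom (14.9% of all genes) and 5 with both libraries left out (8.86%). With 1 library left out, 0 to 4 members passed there (0% to 3.83% of all genes). The other 5 comparisons gave 0 members under every alternative run (0% to 0.601% of all genes). The 3 members named in each comparison kept their sign under every alternative run, while 14 of 41 members changed sign for Oxf averaged over surgery with the clock score and 10 with the 7SL share. The cause of these moves was not tested. No paired analysis was possible because each mouse belongs to 1 group and the labels state no pairing. Depth was 19.8 M to 65.4 M counts, and Slc7a11 at 0.0462 CPM per kilobase is the member with the lowest level.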
